A study of Mus musculus with 899 samples.

Results

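The subject of this report is miR-126a, a microRNA (miRNA) of blood vessel lining, measured in mouse plasma as its 2 mature strands, mmu-miR-126a-3p and mmu-miR-126a-5p. These 2 of the 1915 miRNA listed in the count table were taken by name, over every strain, treatment and time point, and not by a cut on measured values. Earlier results of these data were known when they were chosen. A miRNA precursor folds into a hairpin, and each arm of the hairpin can give a short strand that guides silencing of matching messenger RNAs. The gene of miR-126a sits inside Egfl7, which encodes a protein secreted by endothelial cells. The 3p strand is known to repress Spred1 and Pik3r2, inhibitors of growth factor signalling in endothelium, and the 5p strand is known to repress Dlk1, a Notch pathway ligand. Loss of the gene in mice leads to leaky vessels and haemorrhage, and miR-126 is also carried by platelets, which can contribute strands to plasma.

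The study drew plasma repeatedly from adult C3Hf/Sed/Kam (C3H) and C57Bl/6 mice of both sexes that received whole thorax lung irradiation (WTLI) or a sham exposure. The labels name no transgene or deletion in any group. The 899 libraries came from 196 mice, of which 64 C3H and 68 C57Bl/6 mice were irradiated and 32 of each strain were sham controls. Time points were PT (before irradiation), D2 and D5 (days 2 and 5), and monthly samples M1 to M4 in C3H and M1 to M6 in C57Bl/6 mice. No mouse had samples at both D2 and D5. In C3H mice the irradiated groups held 64 (PT), 32 (D2), 32 (D5), 58 (M1), 28 (M2), 27 (M3) and 17 (M4) libraries, against 32, 16, 16, 32, 16, 16 and 16 sham libraries. In C57Bl/6 mice the irradiated groups held 64, 32, 32, 68, 36, 31, 29, 21 (M5) and 8 (M6) libraries, against 32 sham libraries at PT and M1 and 16 at every other time point. A set code in the sample titles, which the labels do not explain, is G1 or G3 in C57Bl/6 and G2 or G4 in C3H mice, and the mice of G1 and G2 are those sampled beyond M1. Plasma holds miRNA from many cells, and the libraries hold no messenger RNA, so the cell that released a strand cannot be read from these data, and more releasing cells cannot be told apart from more miRNA per cell.

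Both strands come from the same 73-base hairpin, which was located on the GRCm38 assembly (mm10), the build named in the submitters' processing notes. The Mir126a hairpin lies on the forward strand at chr2:26591357-26591429. In 8 of the 9 Egfl7 transcripts of GENCODE M21 that span it, it is intronic, starting after the exon that ends at position 26591063, and in the remaining transcript it overlaps an exon. The same bases also lie within Gm20532, an annotated gene on the forward strand that extends beyond Egfl7. The sequences are shown because the counting depends on telling this strand from its antisense neighbour: the Mir126b hairpin, 58 bases at chr2:26591363-26591420 on the reverse strand, lies wholly within that of Mir126a. Sequences are from RefSeq (GRCm38.p6). The capitals mark the miR-126a-3p strand in the hairpin and the seed, bases 2 to 8, which sets target choice, in the mature strands.
Mir126a hairpin: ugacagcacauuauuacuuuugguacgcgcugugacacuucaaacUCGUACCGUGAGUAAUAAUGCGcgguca
miR-126a-3p: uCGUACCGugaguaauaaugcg
miR-126b-3p: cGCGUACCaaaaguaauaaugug
miR-126b-5p: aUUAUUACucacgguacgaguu
The mature miR-126a-3p strand occupies chr2:26591402-26591423. None of the 1678 other mature mouse miRNA compared had its seed, and the nearest, miR-126b-3p, differed by 6 edits over the whole strand. The reference used held no mature sequence of miR-126a-5p, so that strand is not shown and was not compared with other miRNA. miR-126b-5p is complementary to miR-126a-3p over a run of 19 bases. Reads named miR-126b were few: 100 in all for miR-126b-3p, in 33 of 899 libraries, and 294 for miR-126b-5p, in 98 libraries.

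Both strands were among the most abundant plasma miRNA. By reads summed over all libraries miR-126a-3p ranked 8 and miR-126a-5p ranked 11 of 1915. The lowest, median and highest share of a library's reads were 0.522%, 2.17% and 5.39% for miR-126a-3p and 0.222%, 1.58% and 4.99% for miR-126a-5p. At least 4944 reads of the 3p strand and 1145 reads of the 5p strand stood behind every value, so counting error was small beside the spread between mice. The 3p strand outnumbered the 5p strand in 753 libraries and the 5p strand outnumbered the 3p strand in the other 146.

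Library totals ran from 206490 to 11814515 reads with a median of 1475030. Members of a list of red cell miRNA took between 17.5% and 79.9% of the reads (median 52.9%), and miR-16-5p alone had a median share of 46.2%, so values were normalized to the trimmed mean of M values (TMM) before comparison. Levels are given as log2 CPM, the read count scaled to the size of its library, on which 1 unit is a 2-fold difference. Mice of different set code and sex differed from each other at the same time point. In C3H mice 54.2% of the variance of miR-126a-5p lay between blocks of set code, sex and time point, while 9.88% lay between the treatment and time groups. The corresponding shares in C57Bl/6 mice were 42.7% and 23.2%. For miR-126a-3p the shares were 42.5% between blocks and 22.2% between groups for C3H, against 28.1% and 13.9% for C57Bl/6 mice. Blocks (22 in C3H and 26 in C57Bl/6 mice) and groups both contain time point. The 2 shares therefore overlap, and neither isolates set code and sex. Because irradiated and sham mice are present in every block, each comparison below is given as the difference of group means and, where it changes the call, within these blocks.

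**Figure D1:**
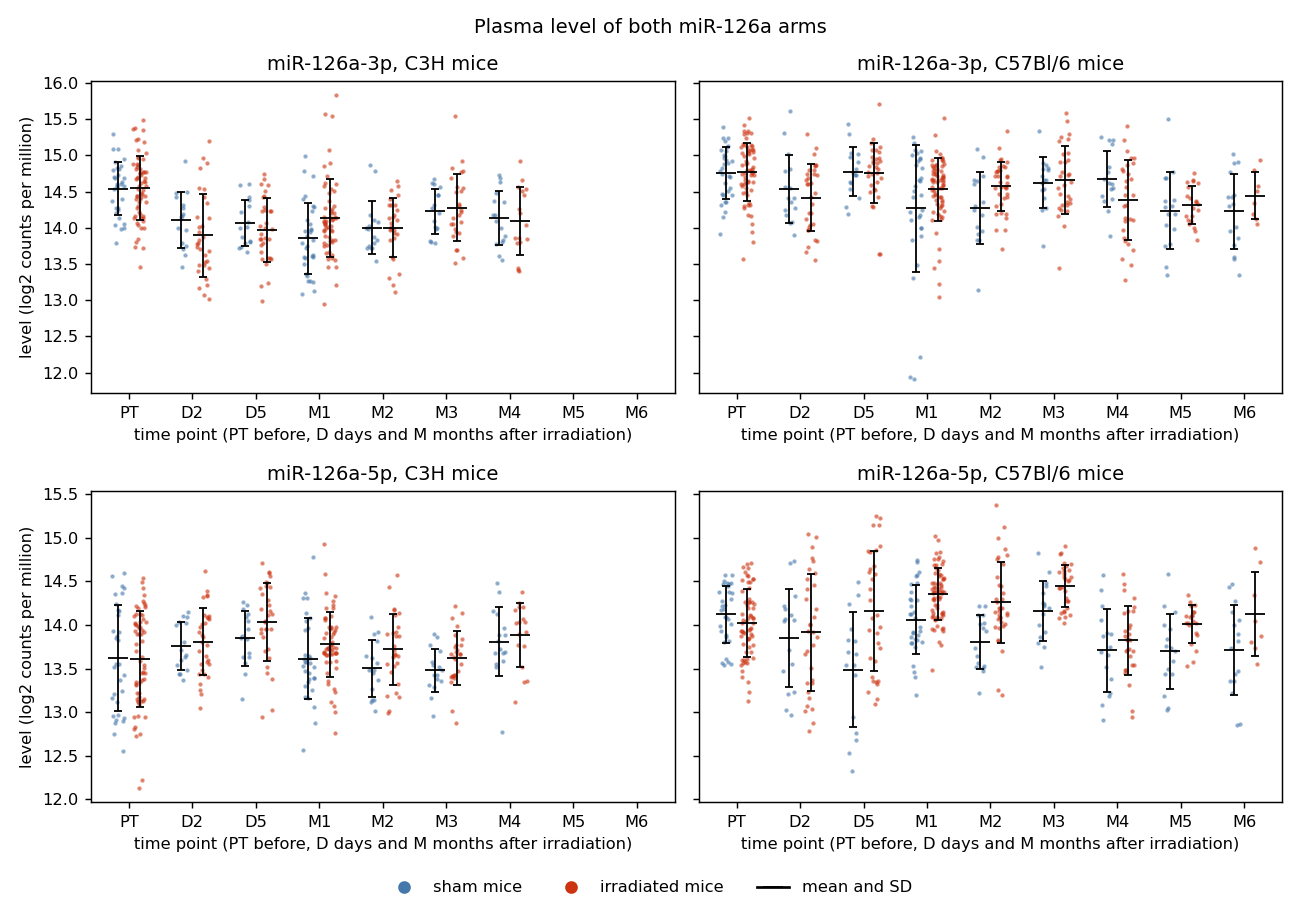
Level of miR-126a-3p (top) and miR-126a-5p (bottom) as log2 CPM in each library, by time point, for sham (blue) and irradiated (red) mice of both strains, with the mean and SD of each group in black. Irradiated C57Bl/6 mice had higher group means of miR-126a-5p than sham mice at every time point after irradiation, whereas the group means of miR-126a-3p lay on either side of each other.

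Before irradiation the groups overlapped throughout. In C3H mice the lowest, median and highest level of miR-126a-3p were 13.79, 14.59 and 15.29 log2 CPM in sham and 13.45, 14.58 and 15.49 in mice to be irradiated. For miR-126a-5p they were 12.56, 13.55 and 14.59 in sham and 12.13, 13.67 and 14.54 in mice to be irradiated. In C57Bl/6 mice the 3p strand ran from 13.92 over a median of 14.81 to 15.39 in sham and from 13.57 over 14.79 to 15.52 in the other group. The 5p strand ran from 13.54 over 14.18 to 14.58 and from 13.13 over 14.02 to 14.71. None of these differences passed edgeR's quasi-likelihood test (adjusted p from 0.973 to 0.994), nor did any strand reach an unadjusted p under 0.05 by edgeR, DESeq2 or limma-voom. Of all miRNA tested at PT, 0 of 966 tests over both strains passed (0%) by each of the 3 tools, and 57 had an unadjusted p under 0.05 by edgeR.

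After WTLI the clearest change was in the 5p strand of C57Bl/6 mice. Its fitted level was higher in irradiated than in sham mice at all 8 time points, with log2 fold changes from 0.09 to 0.69 and a median of 0.27, and the difference passed the test at D5 and M2. By DESeq2 and by limma-voom it passed at 3 of the 8, M1 being the third, and over all alternatives the number lay between 1 and 3. Over the 8 time points together the edgeR F test, which counts repeated samples of 1 mouse as independent, gave an adjusted p of 1.65e-08. Of all miRNA tested 25.3% passed the same test. The 3p strand did not pass it (adjusted p = 0.453). Both strands come from 1 transcript, and their fold changes at D5 were 0.69 for miR-126a-5p and -0.00 for miR-126a-3p.

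At D5 the level of miR-126a-5p in C57Bl/6 mice had a minimum of 12.32, a median of 13.61 and a maximum of 14.49 log2 CPM in 16 sham mice, and of 13.10, 14.10 and 15.25 in 32 irradiated mice. The groups overlapped, with the low end held by sham mice and the high end by irradiated mice. The log2 fold change was 0.69 (SE 0.14; 95% interval 0.42 to 0.96; 1.62-fold) and the adjusted p from edgeR was 1.85e-05, at a time point where 14.1% of all miRNA tested passed.

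The difference at D5 was uneven across the mice. Among females of set code G3 the level was 12.32, 12.61 and 13.95 log2 CPM (lowest, median, highest) in 4 sham mice and 13.95, 14.85 and 15.15 in 8 irradiated mice, a difference of 1.89 log2 units. In the other 3 blocks the difference was 0.54 (G3 males), 0.41 (G1 males) and -0.16 (G1 females). Without the females of G3 the log2 fold change fell to 0.35 and no longer passed the test (edgeR adjusted p = 0.208), and among mice of G1 alone it was 0.25 (adjusted p = 0.324). With set code and sex as a block at each time point it was 0.58 (SE 0.11; edgeR adjusted p = 2.37e-06). The 4 sham libraries of G3 females held 419427 to 1406579 reads, against 965579 to 3012768 in the 8 irradiated ones, and their erythroid share was 35.5% to 62.0% against 32.4% to 52.8%. The part of depth in the difference was not tested.

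At M2 the level of miR-126a-5p was 13.22, 13.83 and 14.22 log2 CPM (lowest, median, highest) in 16 sham mice and 13.20, 14.18 and 15.38 in 36 irradiated mice. The lowest values of both groups were alike, and the irradiated mice extended more than 1 log2 unit further up. The log2 fold change was 0.50 (SE 0.13; 95% interval 0.24 to 0.76; 1.42-fold; edgeR adjusted p = 0.00817), with 3.31% of all miRNA passing at that time point. All M2 mice were of set code G1, and the difference was 0.51 in females and 0.36 in males. Of 19 alternatives 14 kept this call. It was lost without the 4 irradiated females that had no PT sample (0.38; adjusted p = 0.103), under scaling by total counts at about the same fold (0.54), without G1 females up to M1 (0.41; adjusted p = 0.0671), and in females alone (0.48; adjusted p = 0.143) and males alone (0.33; adjusted p = 0.705).

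At M1, with 68 irradiated and 32 sham mice, the 5p level ran from 13.48 over a median of 14.38 to 15.02 log2 CPM in irradiated and from 13.20 over 14.03 to 14.75 in sham mice. The difference of 0.27 (SE 0.09) missed the threshold in the fit of group means (edgeR adjusted p = 0.0814) and passed within blocks of set code and sex (0.28, SE 0.07; adjusted p = 0.00567) and with the mouse as a block (0.30; limma-voom adjusted p = 0.0464). The share of all miRNA that passed at M1 was 3.73%. At M6, with 8 irradiated mice, the difference was 0.40 (SE 0.19; adjusted p = 0.527) and did not pass. A different quantity, the change from PT to M6 fitted over all samples with a term for each mouse, was 0.75 log2 units higher in irradiated mice (limma-voom adjusted p = 0.0173). Measured directly, the mean change from a mouse's own PT sample to M6 was 0.10 (SD 0.54) in 8 irradiated mice. In 16 sham mice it was -0.53 (SD 0.46). The differences at D2 (0.11), M3 (0.27), M4 (0.09) and M5 (0.27) did not pass. The shares of all miRNA that passed were 6.63% at D2, 1.66% at M3, 4.76% at M4, 3.52% at M5 and 0.414% at M6. Within blocks miR-126a-5p passed at 3 of the 8 time points (D5, M1 and M2), where 6.47% of all tests over the 8 time points passed.

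**Figure D2:**
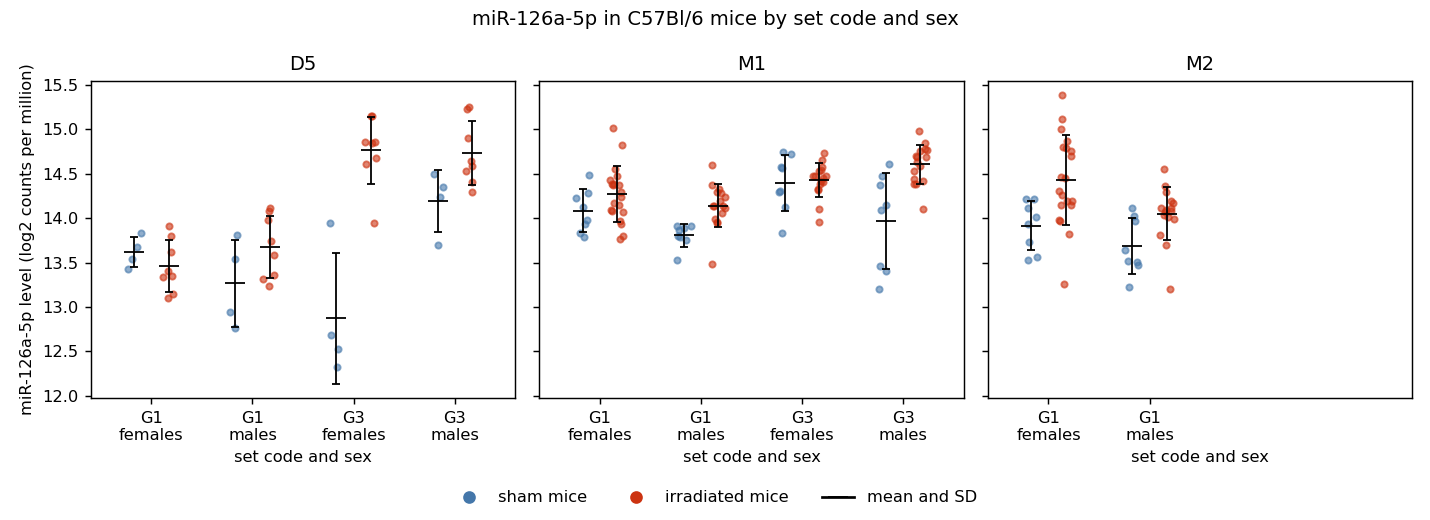
Level of miR-126a-5p (log2 CPM) in C57Bl/6 mice at D5, M1 and M2 by set code and sex, for sham (blue) and irradiated (red) mice, with the mean and SD in black. At D5 the lowest value, 12.32, was that of a sham female of G3, and the highest of the 4 sham females of G3 was 13.95, while in G1 females the irradiated mean lay below the sham mean.

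miR-126a-3p in C57Bl/6 mice passed the test at 0 of the 8 time points by edgeR, DESeq2 and limma-voom, and it had an unadjusted p under 0.05 at 0, 0 and 3 of them. Its log2 fold changes ran from -0.24 at M4 to 0.25 at M2, with a median of 0.04. At D5, where the 5p strand differed, the 3p level was 14.19, 14.74 and 15.43 log2 CPM in sham and 13.63, 14.82 and 15.71 in irradiated mice, and the 95% interval of the log2 fold change was -0.28 to 0.27. At M1 the lowest sham values were those of G3 males (11.92, 13.39 and 14.50 as lowest, median and highest of 8), and the sham range of 11.92 to 15.26 was wider than the irradiated range of 13.05 to 15.51. Among G3 males at M1 the irradiated mean was 1.00 log2 units above the sham mean, while the other 3 blocks differed by between -0.19 and 0.16.

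In C3H mice neither strand passed the test in the fit of group means. miR-126a-5p was higher in irradiated mice at all 6 time points, with log2 fold changes from 0.07 (M4) to 0.24 (M2), and none had an unadjusted p under 0.05 by edgeR or limma-voom, against 1 by DESeq2. miR-126a-3p ranged from -0.14 (D2) to 0.31 (M1), with 1 unadjusted p under 0.05 by each of the 3 tools. The largest of these was at M1, where the 3p level was 13.08, 13.81 and 15.00 log2 CPM in 32 sham mice and 12.95, 14.07 and 15.83 in 58 irradiated mice. That difference of 0.31 (SE 0.10) had an edgeR adjusted p of 0.0621, it passed within blocks of set code and sex (0.33, SE 0.09; adjusted p = 0.0131), and DESeq2 called it as well (0.36; adjusted p = 0.0087). Of all miRNA tested in C3H mice, 4.97% passed at D2, 3.11% at D5, 3.31% at M1, 0.621% at M2, 2.07% at M3 and 0.414% at M4, and 3.59% of the tests over the 6 time points passed within blocks.

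The F tests over the 6 time points in C3H mice gave adjusted p of 0.323 for miR-126a-3p and 0.427 for miR-126a-5p, with 15.5% of all miRNA passing. Within blocks they gave 0.0607 and 0.0352. A difference between the strains in the response to WTLI was not shown for either strand. The edgeR F test of that difference over the 6 shared time points gave an adjusted p of 0.938 for miR-126a-3p and 0.656 for miR-126a-5p (4.35% of all miRNA passed). At D5 the effect on miR-126a-5p was 0.47 log2 units larger in C57Bl/6 than in C3H mice (SE 0.19; adjusted p = 0.218).

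**Figure D3:**
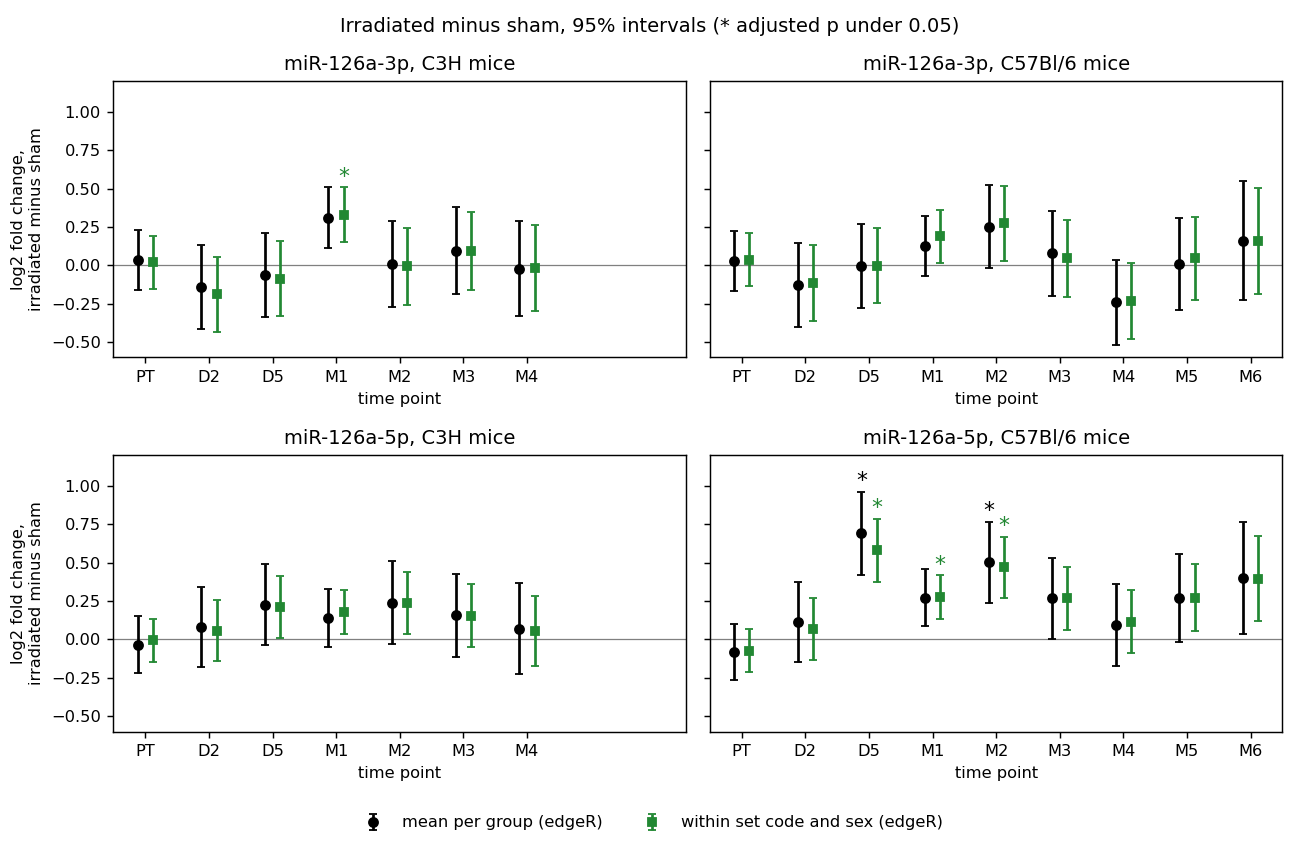
Log2 fold change of irradiated over sham mice with its 95% interval for each strand, strain and time point, from the fit of group means (black circles) and from the fit within blocks of set code and sex (green squares); stars mark an adjusted p under 0.05. The 5p strand of C57Bl/6 mice lies above 0 at all 8 time points after irradiation and is starred at D5 and M2 in both fits and at M1 in the fit within blocks.

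To use each mouse once, the samples of a mouse after irradiation were averaged as deviations from mice of its own set code, sex and bleed day at the same time point. In C57Bl/6 mice miR-126a-5p was 0.37 log2 units higher in 68 irradiated than in 32 sham mice (SE 0.04), in 8 of 8 blocks, with a two-sided permutation p of 1e-05, the smallest that 100000 resamples can give, and 6e-05 adjusted over 6 such tests. The 64 irradiated mice that also had a PT sample differed from sham mice by 0.37 after irradiation (SE 0.04) and by -0.10 before it (SE 0.07; permutation p = 0.131). Leaving out any block of set code and sex gave between 0.32 and 0.47. miR-126a-3p differed by 0.14 (SE 0.05; permutation p = 0.0341, adjusted 0.0512), and its size depended on which mice were included. It was -0.04 (permutation p = 0.424) without the males of G3, 0.13 (p = 0.116) without the males of G1, and 0.23 without the females of G1 (p = 0.00557) or of G3 (p = 0.00181). In C3H mice miR-126a-5p was 0.12 log2 units higher in 64 irradiated than in 32 sham mice (SE 0.05), in 6 of 8 blocks (permutation p = 0.0175, adjusted 0.0350). That difference was 0.06 (permutation p = 0.291) without the males of G2 and 0.10 (p = 0.0563) without the females of G4. miR-126a-3p differed by 0.03 in C3H mice (SE 0.06; permutation p = 0.617). Scaled to reads outside the erythroid list, the differences in C57Bl/6 mice were 0.45 (SE 0.05; permutation p = 1e-05, the smallest the resamples can give) for miR-126a-5p and 0.21 (SE 0.06; permutation p = 0.00205) for miR-126a-3p. In C3H mice they were 0.16 (SE 0.06; permutation p = 0.00819) and 0.07 (SE 0.06; permutation p = 0.263). Library depth ran together with treatment in C3H mice. After irradiation the mean of total reads was lower in irradiated mice in 18 of 18 sets of time point, set code and sex. The erythroid share was higher in 16 of them. In C57Bl/6 mice these counts were 14 and 15 of 22. At PT mean totals in C3H mice were already 1485000 (to be irradiated) and 1931000 (sham). The part of depth was not tested.

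The ratio of the strands within a library does not depend on library size or its normalization. It was formed as the log2 ratio of 3p to 5p reads with 0.5 added to each count, and it ran from -1.48 to 2.81 with a median of 0.43 over the 899 libraries. In C57Bl/6 mice its mean was lower in irradiated than in sham mice at all 8 time points after WTLI, and in C3H mice at 5 of 6, M1 being the exception. At D5 in C57Bl/6 mice it was 0.05, 1.35 and 2.30 (lowest, median, highest) in 16 sham mice and -0.55, 0.49 and 1.69 in 32 irradiated mice. The difference in means was -0.69 (SE 0.22; two-sided permutation test, adjusted p = 0.0213 over 16 comparisons). At M4 it was 0.20, 1.02 and 1.45 in 16 sham mice and -0.40, 0.48 and 1.65 in 29 irradiated mice, a difference of -0.41 (SE 0.12; permutation, adjusted p = 0.0213). Irradiated mice were shifted downward at both time points while the groups overlapped. The strands behind the shift differed. At D5 the log2 fold change was 0.69 for miR-126a-5p and -0.00 for miR-126a-3p. At M4 it was 0.09 for miR-126a-5p and -0.24 for miR-126a-3p, and neither passed.

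The other comparisons of the ratio did not pass, including those at PT, where it differed by 0.12 (SE 0.06; permutation, adjusted p = 0.130) in C57Bl/6 and by 0.02 (SE 0.15; permutation, adjusted p = 0.900) in C3H mice. Within blocks of set code and sex the ratio passed at 6 of 14 time points after WTLI. These were D2 (-0.27), D5 (-0.29) and M2 (-0.22) in C3H and D5 (-0.69), M3 (-0.24) and M4 (-0.41) in C57Bl/6 mice, with permutation p adjusted over 16 between 0.00192 and 0.0463. As for the 5p level, females of G3 held the largest difference at D5. Their ratio was 0.78 to 2.30 in 4 sham and -0.55 to 0.24 in 8 irradiated mice, without overlap, and G1 males did not overlap either (1.62 to 2.26 against 0.27 to 1.57). The other blocks at D5 overlapped. In G3 males the ratio differed by -0.15, and in G1 females it was higher in irradiated mice, by 0.14. After irradiation 3 of 22 blocks of C57Bl/6 mice had no overlap of the ratio. Without G3 females the difference at D5 was -0.26 (permutation p = 0.246). With 1 value per mouse the ratio was lower by 0.23 in irradiated C57Bl/6 mice (difference -0.23, SE 0.05; permutation p = 0.00012, adjusted 0.00036), and -0.09 (permutation p = 0.156) without the females of G3. In C3H mice it differed by -0.09 (SE 0.06; permutation p = 0.124).

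**Figure D4:**
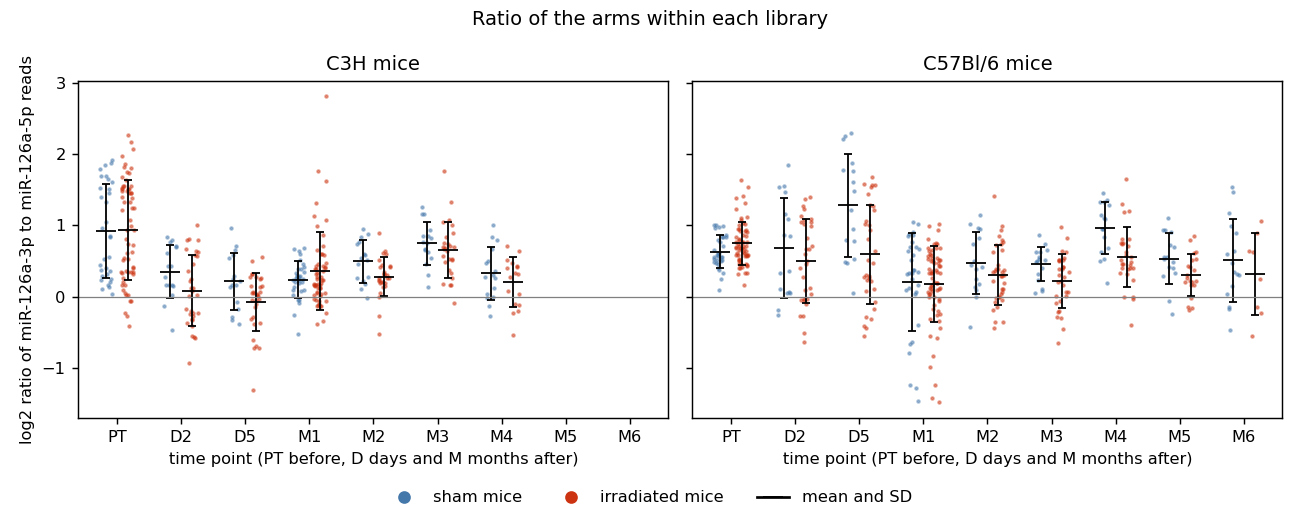
Log2 ratio of miR-126a-3p to miR-126a-5p reads in each library by time point, for sham (blue) and irradiated (red) mice, with the mean and SD in black; 0 marks equal reads of both strands. The mean ratio of irradiated C57Bl/6 mice lies below that of sham mice at all 8 time points after irradiation, most at D5 (0.60 against 1.29).

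Levels also changed from PT without irradiation, and the group means of this contrast mix set codes, since PT holds both set codes of a strain and M2 onward only 1. In sham C3H mice miR-126a-3p was lower than at PT at 5 of 6 later time points (D2, D5, M1, M2 and M4), with log2 fold changes from -0.65 (M1) to -0.33 (M3, not called). Over the 6 time points 13.7% of all tests in sham C3H mice passed in the downward direction. miR-126a-5p passed at none of them by edgeR, but this joined opposite changes. Set against its own PT sample, miR-126a-5p rose on average in sham mice of G2 at all 6 time points, by 0.31 (SD 0.49, higher in 12 of 16 mice) at M1 up to 0.72 (SD 0.56, 14 of 16) at M4. In sham mice of G4 it was on average lower at D2 (-0.24, SD 0.41), D5 (-0.22, SD 0.41) and M1 (-0.32, SD 0.42). miR-126a-3p was on average lower in both set codes, from -0.95 (SD 0.54, higher in 0 of 16 mice) in G2 at M1 to -0.22 (SD 0.30) in G2 at D5. These changes from a mouse's own PT sample are given as values with no test.

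In sham C57Bl/6 mice both strands were lower than at PT at 4 of 8 time points, the 3p strand at M1, M2, M5 and M6 and the 5p strand at D5, M4, M5 and M6, where 11.9% of all tests passed downward. In irradiated mice miR-126a-3p was lower than at PT at 6 of 6 time points in C3H mice, where 17.4% of all tests passed downward, and at 4 of 8 in C57Bl/6 mice (D2, M1, M4 and M5), where 14.6% did. In irradiated C3H mice miR-126a-5p was higher at D5 (0.39), with 15.1% of all tests passing upward. In irradiated C57Bl/6 mice the fit of group means called miR-126a-5p higher than at PT at D5 (0.24), M1 (0.31), M2 (0.26) and M3 (0.39), with 17.4% of all tests passing upward. Within set codes the picture differed. At D5 irradiated mice of G1 were on average below their own PT sample (-0.42, SD 0.47, higher in 4 of 16 mice) and those of G3 above it (0.73, SD 0.46, higher in 15 of 16). Irradiated mice of G1 changed by 0.08 (SD 0.37) at M1, 0.10 (SD 0.42) at M2 and 0.39 (SD 0.38, higher in 24 of 27 mice) at M3. Sham mice of G1 changed by -0.76 (SD 0.48) at D5, -0.29 (SD 0.37) at M1, -0.44 (SD 0.41) at M2 and -0.08 (SD 0.45) at M3, so within G1 the irradiated mice had a higher mean change than the sham mice at each of these time points.

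The strand ratio in C3H mice at PT was split by set code in the same way. Over sham and irradiated mice together it ran from 0.84 to 2.28 in G2 and from -0.41 to 0.97 in G4. The group mean of the ratio in sham C3H mice was 0.92 at PT and between 0.22 and 0.75 later.

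Before irradiation both strands were higher in C57Bl/6 than in C3H mice, by 0.21 log2 units for miR-126a-3p (SE 0.07; edgeR adjusted p = 0.00751) and 0.39 for miR-126a-5p (SE 0.07; adjusted p = 4.49e-08), in a comparison that 50.7% of all miRNA passed. The strain difference was not even across set codes. For miR-126a-5p it was 1.10 between G1 and G2 and -0.14 (adjusted p = 0.169) between G3 and G4, and among males alone it was 0.13 (adjusted p = 0.237). For miR-126a-3p it was 0.48 among females and -0.06 among males (adjusted p = 0.689). Strain and set code cannot be told apart in these values, since no set code was used in both strains. In sham mice after PT miR-126a-3p was higher in C57Bl/6 mice at all 6 shared time points and passed at 4 of them, with log2 fold changes from 0.31 to 0.71. miR-126a-5p passed at 2 (M1 and M3), where 10.8% of all tests passed in that direction.

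At PT the sexes differed in 1 strand of each strain. By the study's methods the females were an older age group than the males, so sex and age cannot be told apart in these values. In C3H mice females had less miR-126a-3p than males (log2 fold change -0.38, SE 0.09; edgeR adjusted p = 0.000857; 13.3% of 543 miRNA passed), with -0.24 for miR-126a-5p (adjusted p = 0.0526). In C57Bl/6 mice females had more miR-126a-5p (0.28, SE 0.09; adjusted p = 0.0218; 12.2% of miRNA passed), with 0.17 for miR-126a-3p (adjusted p = 0.219). The 5p difference was lost under scaling by total counts (0.17; adjusted p = 0.388), and it was seen in G3 and not in G1. Mean levels there were 14.26 in females and 13.70 in males to be irradiated, and 14.33 and 13.68 in sham mice. In G1 they were 14.08 and 14.05, and 14.15 and 14.32. miR-126a-3p in C3H mice was lower in females in both set codes. The effect of WTLI on miR-126a-3p differed between the sexes of C57Bl/6 mice over D2, D5 and M1 (F test, adjusted p = 0.00618), a test that 5.16% of miRNA passed. The female effect was smaller than the male effect by 0.97 log2 units at D2 (SE 0.26) and 0.45 at M1 (SE 0.18). At D2 the 3p level in G1 females was 14.78 to 15.61 log2 CPM in 4 sham and 13.55 to 14.79 in 8 irradiated mice, a difference of -0.95, while G1 males (0.25), G3 females (-0.14) and G3 males (0.38) differed less. Those 8 irradiated G1 females had 413278 to 961579 reads and the 4 sham ones 1082292 to 1721917, and the part of depth was not tested. Scaled by total reads the F test did not pass (adjusted p = 0.106). For miR-126a-5p in C57Bl/6 mice (adjusted p = 0.238) and both strands in C3H mice (adjusted p = 1.00; 0.737% of miRNA passed) the test did not pass.

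A list of 23 miRNA known from endothelial cells, of which 21 were tested, had a median close to that of all miRNA tested at the time points where miR-126a-5p passed. The median log2 fold change of the list in C57Bl/6 mice was 0.11 at D5 and 0.03 at M2, beside -0.00 and 0.01 over all 483 miRNA tested. At D5 2 members were higher and 2 lower in irradiated C57Bl/6 mice, 4 of 21, at a time point where 14.1% of all miRNA passed. miR-101a-3p rose (0.50, SE 0.13; edgeR adjusted p = 0.00170), and so did miR-503-5p (0.73, SE 0.23; adjusted p = 0.0137). Of the others, miR-23b-3p, a member of the miR-23b/27b/24 cluster, fell (-0.67, SE 0.15; adjusted p = 0.000195), and miR-24-3p fell (-0.29, SE 0.10; adjusted p = 0.0352). At M2 miR-139-5p rose (0.47, SE 0.12; adjusted p = 0.00507), as it did at M4 (0.37; adjusted p = 0.0448) and M5 (0.52; adjusted p = 0.00299), whereas miR-100-5p fell at M2 (-1.09, SE 0.33; adjusted p = 0.0361). Going the other way, miR-23b-3p was called lower at M4 and at M1. Of the 21 members, 1 was called higher and 1 lower at D2, at M2 and at M4, 1 and 0 at M5, and 0 and 1 at M1. At M3 and M6 0 were called. Those called at D2 were miR-24-3p and miR-100-5p, in opposite directions. The shares of all miRNA that passed were 6.63% at D2, 3.31% at M2, 4.76% at M4, 3.52% at M5 and 3.73% at M1. At M3 and M6 they were 1.66% and 0.414%. Of 7 leukocyte miRNA 4 fell and 0 rose at D5 in C57Bl/6 mice, with a list median of -1.10, and their summed share of reads was 1.14% to 3.13% in sham and 0.606% to 2.17% in irradiated mice. Of 12 tested platelet miRNA 3 rose (miR-21a-5p, miR-185-5p and miR-22-3p) and 2 fell (miR-223-3p and miR-24-3p), with a median of 0.10. The 2 that fell are shared with other lists and are counted there too, miR-223-3p with the leukocyte and miR-24-3p with the endothelial list. Of 7 erythroid miRNA 1 rose, with a median of 0.19. At D5 the endothelial and erythroid counts were near the share over all miRNA. The platelet share of reads was 5.21% to 13.0% in sham and 5.65% to 19.8% in irradiated mice. Their part in the 5p difference was not tested.

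The miRNA whose levels varied most like each strand were partly different. Over the 899 libraries, after removal of group means, the Pearson correlations of TMM log2 CPM with miR-126a-3p were highest for miR-23b-3p (0.448), miR-195a-5p (0.438), miR-10b-5p (0.429), let-7e-5p (0.420) and miR-126a-5p (0.408), among 163 miRNA with a mean of at least 5 log2 CPM. For miR-126a-5p they were highest for miR-101a-3p (0.664), miR-23a-3p (0.596), miR-218-5p (0.522), miR-30a-5p (0.497) and miR-34a-5p (0.480), and miR-126a-3p was 14th in that order. With the means of group, set code and sex removed, each strand was the other's closest partner (0.574). These values share libraries, depth and normalization and are given as a description.

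Whether a strand's early level went with later sampling was examined among irradiated mice of G1 and G2, since the labels show which mice had a sample at the last time point (M6 and M4) but not why others had none. Of 16 exact rank-sum tests 1 passed after adjustment. At M1 miR-126a-5p was 13.48, 13.95 and 14.37 log2 CPM (lowest, median, highest) in the 8 C57Bl/6 mice with an M6 sample and 13.93, 14.26 and 15.02 in the 28 without one (two-sided exact Wilcoxon rank-sum p = 0.00229, adjusted 0.0366). The median of the 8 lay below that of the 28 and the ranges overlapped, and sham mice of G1 ran from 13.53 to 14.48 at M1. The 28 included the 4 females that had no PT sample, without which the call of this strand at M2 was lost. The rank-sum test at M1 was not run without these 4 mice. At PT, before irradiation, the same 8 mice and the other 24 with a PT sample had medians of 14.08 and 14.02 (exact rank-sum p = 0.949). In C3H mice the lowest p was 0.0160 (exact test, adjusted 0.128), for a higher level of miR-126a-5p at D2 in 10 mice with an M4 sample (median 14.05) than in 6 without (median 13.34). By total counts this difference passed as well (0.70; exact test, adjusted p = 0.0440), opposite in direction to that at M1 in C57Bl/6 mice. The sexes were unequal in it, with 3 females and 7 males among the 10 and 5 females and 1 male among the 6, and within sex it was 0.28 (SE 0.12; permutation p = 0.0597, adjusted 0.477). The difference at M1 in C57Bl/6 mice was -0.35 within sex (SE 0.10; permutation p = 0.00124, adjusted 0.0198). The other 14 tests had exact p above 0.05.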

How the data were processed

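Small RNA was sequenced from plasma with a kit that ligates adapters to miRNA. Per the labels and the study's methods the authors left out hemolysed plasma and libraries dominated by adapter dimers, aligned reads to mm10 in a small RNA application and deposited raw read counts per miRNA; the miRBase release and any use of molecular identifiers are not given in the sources used here. The 899 columns were matched to samples by title, and 0 columns had no sample. From the counts, edgeR (version 4.0.16) filtered with filterByExpr (483 of 1915 miRNA kept, 99.99% of reads), normalized with TMM (factors 0.372 to 1.59) and fitted 1 mean per strain, treatment and time point (32 groups, 867 residual degrees of freedom, common coefficient of biological variation 0.618) with the quasi-likelihood test and Benjamini-Hochberg adjustment within a comparison at 0.05. Sex was added to the groups for the tests of sex (543 miRNA). Log2 CPM used a prior count of 2. Permutation tests were two-sided with 100000 resamples, exact at M6. limma (version 3.58.1) and DESeq2 (version 1.42.0) served as alternatives. The edgeR step was first run on simulated libraries with seeded changes, and no called change had the wrong sign. The simulated libraries held no differences by set code, sex or mouse, so this run does not address such differences. Samples of a mouse came from 1 animal, as its number in the labels shows, and deviations from the group means correlated at 0.0841 between samples of 1 mouse and -0.000465 between mice. The edgeR fits held no term for the mouse. Their F tests over time points and comparisons with PT therefore counted repeated samples of a mouse as independent. Named miRNA were both strands, the 5 most correlated with each and list members. The miRNA and lists were chosen with earlier results of these data known. The blocks of set code and sex were chosen after the values were seen.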

Additional observations from a re-analysis of the deposited data

Results flagged for a closer look

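The effect of WTLI on miR-126a-3p differed between females and males of C57Bl/6 mice over D2, D5 and M1 (edgeR F test of the interaction, adjusted p = 0.00618). The female effect minus the male effect was -0.97 log2 units at D2 (SE 0.26; adjusted p = 0.0525), -0.07 at D5 and -0.45 at M1 (SE 0.18; adjusted p = 0.425), so no single time point passed. Under total-count scaling the F test gave an adjusted p of 0.106. The females were the older age group, so sex and age cannot be told apart in this difference.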

How the results depend on the processing

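Of 1124 comparisons of a result with an alternative, 1032 were counted as unchanged. Of these, 579 concerned the ratio at PT or single irradiated minus sham contrasts other than miR-126a-5p at D5 and M2 in C57Bl/6 mice. The other 453 concerned the remaining results. The 1032 include comparisons that could not change. Leaving out libraries under 10 reads of miR-126a-5p removed 0 libraries, as the lowest count was 1145. Adding 1 in place of 0.5 could hardly move a ratio at such counts. A difference counted as unchanged if it kept its direction and its side of the threshold. A turned sign also counted so where the main value was below its SE and neither value passed. An example is the ratio at M1 in C57Bl/6 mice, from -0.03 to 0.04. Counts of time points could move within a set factor, such as from 2 to 3. Sign turns of this kind are left out below. The cause of the changes below was not tested. The difference of miR-126a-5p at D5 in C57Bl/6 mice no longer passed in set codes G1 and G2 alone (0.25), in males alone (0.41) or without G3 females (0.35), and that at M2 under total counts (0.54), without mice lacking a PT sample (0.38), in females (0.48) or males (0.33) alone, or without G1 females up to M1 (0.41). With the mouse as a replicate block miR-126a-5p passed in C57Bl/6 mice at M1 (0.30; limma-voom adjusted p = 0.0464). With the mouse as a fixed block the fitted change from PT to M6, another quantity, differed by 0.75 (limma-voom adjusted p = 0.0173). The F test passed for miR-126a-5p in C3H mice within blocks of set code and sex (0.0352) and for miR-126a-3p in C57Bl/6 mice in females alone (0.0281) and after quantile normalization (0.00926), and that of the sex difference failed under total counts (0.106). Signs turned for miR-126a-3p in C3H mice at D2 in G1 and G2 alone (0.0019) and males alone (0.049), in C57Bl/6 mice at M1 in females alone (-0.049), for the PT strain difference in males (miR-126a-3p, -0.056) and in G3 and G4 (miR-126a-5p, -0.14), and for miR-126a-3p per C57Bl/6 mouse without G3 males (-0.042). The PT strain difference was lost for miR-126a-3p in G3 and G4 (0.19) and without G3 females (0.17) and for miR-126a-5p in males (0.13). The sex difference of miR-126a-5p at PT passed in C3H mice with DESeq2 size factors (-0.25) and was lost in C57Bl/6 mice under total counts (0.17). Time points with a difference between irradiated and sham mice came to 1 for miR-126a-3p in C3H mice with DESeq2, its size factors, scaling outside the erythroid list, no filter, within blocks or without G3 males, and to 1 for miR-126a-3p in C57Bl/6 mice in females alone or after quantile normalization. They fell to 1 for miR-126a-5p in C57Bl/6 mice under the settings that ended the call at M2. Time points lower than PT in sham mice came to between 1 and 3 for miR-126a-3p in C3H mice (total counts 2, no filter 3, females 1, quantile normalization 2, without G1 females 2), to 1 for miR-126a-3p in C57Bl/6 mice (total counts, females) and to 1 or 2 for miR-126a-5p in C57Bl/6 mice under 8 settings of scaling, sex and set code. In irradiated mice they came to 3 for miR-126a-3p in C3H mice (total counts), to 1 or 2 for it in C57Bl/6 mice (males 1, quantile normalization 2, without G1 females 2) and to 1 or 2 for miR-126a-5p there (outside the erythroid list 1, females 1, without G3 males 2). Time points at which sham C57Bl/6 mice exceeded sham C3H mice came to 1 in males and 2 without G1 females for miR-126a-3p, and to 0 in males for miR-126a-5p. Within blocks the ratio passed also at D2 (-0.27), D5 (-0.29) and M2 (-0.22) in C3H and M3 (-0.24) in C57Bl/6 mice, and without G3 females the D5 difference was -0.26. Per mouse, miR-126a-5p in C3H mice was 0.063 without G2 males and 0.10 without G4 females, the ratio -0.12 without G4 females, miR-126a-3p in C57Bl/6 mice 0.13 without G1 males, and their ratio -0.0865 without G3 females. By total counts 2 later-sampling tests passed, miR-126a-5p at M1 in C57Bl/6 mice (lower in mice sampled last) and at D2 in C3H mice (higher).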
